A study of Mus musculus with 14 samples.

Results

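The genes of cytotoxic granules were examined in mouse CT26 tumors treated with an antibody against PD-1 or with control IgG. They were 10 genes chosen by name: the granzymes Gzma, Gzmb, Gzmc, Gzmd, Gzme, Gzmf, Gzmg and Gzmk, the pore-forming protein gene Prf1, and Nkg7. All 10 were found by symbol among the 53801 genes with values in each tumor, and all 10 were among the 16287 genes that passed the filter on low counts. CT26 is a colon carcinoma cell line of BALB/c mice. According to the methods of the study, the cells carried a retroviral DNA barcode library and were injected under the skin of both flanks of mice aged 6 to 8 weeks, and treatment began on day 7 with 5 injections of 200 µg at intervals of 3 days. The tumors were collected 3 days after the last injection. RNA was sequenced in bulk from 5 tumors given control IgG (14L, 14R, 16R, 17R and 20R), 5 anti-PD-1 responders (24L, 26R, 30L, 30R and 35L), and 4 anti-PD-1 non-responders (29L, 32R, 33L and 33R). The number stands for the mouse and the letter for the left or right flank, so that mice 14, 30 and 33 each gave 2 tumors and the 14 tumors came from 11 mice. Responders and non-responders were told apart by the study from tumor size after treatment, so these are groups formed after treatment and not treatments of their own. Each tumor had 33237744 to 48481461 expected counts in all. Markers of colon epithelium, such as Epcam and Cdh1, summed to 14.4 to 38.5 TPM (a level that divides a gene's fragments by its length and is scaled to the same total in every tumor) over 8 genes, whereas the myosin, actin and other skeletal muscle genes reached 1413 TPM in 14R and those of the skin epidermis 992 TPM in 30R. Over all genes, non-responder 33R stood apart from the other non-responders, with a chi-square between count profiles of 124 to 181 per gene, and of 165 to 33L of the same mouse, where all other pairs within a group were between 19.8 and 83.3.

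Cytotoxic T cells and natural killer (NK) cells kill by releasing granules into the space between them and a target cell. Perforin, the product of Prf1, opens pores in the target membrane, and granzymes, which are serine proteases, enter and cut proteins of the target. Gzma encodes a tryptase that cuts after basic residues, and Gzmk is its close relative and lies beside it on chromosome 13. Gzmb encodes the protease that cuts after aspartate and starts the caspase cascade. Gzmc, Gzmd, Gzme, Gzmf and Gzmg lie with Gzmb in a tandem array on chromosome 14, are found in rodents, and are known from NK cells and from T cells stimulated for a long time. Nkg7 encodes a membrane protein of the granule that takes part in its release.

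In mm10, Gzma was annotated at chr13:113093825-113100981 and Gzmk at chr13:113171608-113225908, both on the minus strand. The array on the minus strand of chromosome 14 held Gzme at 56117626-56120625, Gzmd at 56129556-56132608, Gzmg at 56156582-56159579, Gzmf at 56205263-56211417, Gzmc at 56231441-56234656 and Gzmb at 56258838-56262260. Between Gzmg and Gzmf it also held Gzmn, at 56165797-56174599, which is not among the 10 genes. Below, the array genes are Gzmc to Gzmg. Prf1 was at chr10:61297833-61304680 and Nkg7 at chr7:43437073-43438249, both on the plus strand. Coding sequences taken from the annotated transcripts were 93.3% identical between Gzmd and Gzme, 89.4% between Gzme and Gzmg, and 71.8% between Gzmc and Gzmd. Gzmb was closest to Gzmc, at 76.0%, and Gzma to Gzmk, at 57.4%. Fragments of such similar genes could be divided between them by the counting. For the granzymes among the 10 genes, no stretch of 150 bases of the longest transcript was found in a transcript of another of the 10. Gzmn was not part of this search. All 140 expected counts of the 10 genes were whole numbers within 0.01.

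The promoters of the array genes Gzmc to Gzmg resembled each other more than any resembled that of Gzmb. Over 300 bases around the RefSeq start, promoter identity was 93.7% between Gzmd and Gzme, 87.0% between Gzmf and Gzmg, and between 79.7% and 85.3% in all other pairs of the 5, and Gzmb was between 45.3% and 51.0% identical to them. The longest run of letters that all 5 promoters held was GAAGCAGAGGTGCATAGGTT, of 20 bases, and among 32851 promoters of the same length, only these 5 held it. Gzmd to Gzmg are the genes that differed together between responders and non-responders below. Gzmc holds the run as well and was not called there, and the part of the run in the differences was not tested. The 110 bases around this run are shown for all 5 (RefSeq, GRCm38.p6, 5′ to 3′, with the shared run in capitals).
Gzmc, chr14:56234653-56234762, minus strand: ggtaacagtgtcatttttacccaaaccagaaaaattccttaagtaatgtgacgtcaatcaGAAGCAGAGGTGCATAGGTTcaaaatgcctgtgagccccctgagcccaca
Gzmd, chr14:56132593-56132702, minus strand: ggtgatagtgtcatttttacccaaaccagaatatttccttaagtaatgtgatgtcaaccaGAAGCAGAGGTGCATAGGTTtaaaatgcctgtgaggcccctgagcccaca
Gzme, chr14:56120626-56120735, minus strand: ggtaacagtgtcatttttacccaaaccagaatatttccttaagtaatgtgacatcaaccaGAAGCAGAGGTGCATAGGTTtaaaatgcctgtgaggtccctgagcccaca
Gzmf, chr14:56211428-56211537, minus strand: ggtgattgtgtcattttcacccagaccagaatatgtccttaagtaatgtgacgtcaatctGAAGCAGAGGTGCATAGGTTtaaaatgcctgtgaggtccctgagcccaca
Gzmg, chr14:56159595-56159704, minus strand: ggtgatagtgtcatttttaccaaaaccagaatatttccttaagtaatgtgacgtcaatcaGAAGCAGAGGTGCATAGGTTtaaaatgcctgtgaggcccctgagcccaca

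Motif letters were searched on both strands of the same 300 bases: TGTGGT (RUNX), AGGTGT (T-box), TGANTCA (AP-1), TGACGTCA (CRE) and TTCNNNGAA (STAT). The RUNX letters were in the promoters of 9 of the 10 genes and in 16.8% of all promoters, and the T-box letters were in 6 of the 10 and in 13.7% of all. The CRE letters were in Gzmc, Gzmf and Gzmg and in 1.79% of all promoters. The AP-1 letters were in Gzmb alone among the 10 and in 7.81% of all, and the STAT letters in Gzmb and Nkg7 and in 8.3% of all. Since the array promoters share their sequence, they do not count as separate cases. The letters did not follow the calls reported below. Gzmk, called higher in responders than in controls, held the T-box letters and no RUNX letters. Prf1, not called in any comparison, held both, as did Gzma and Nkg7. The promoters of Gzma and Nkg7, which were higher in responders than in controls, and of Gzmb, which was not called in any comparison, are shown with every match of these motifs in capitals. No match printed overlapped that of another motif.
Gzma, chr13:113100932-113101231, minus strand: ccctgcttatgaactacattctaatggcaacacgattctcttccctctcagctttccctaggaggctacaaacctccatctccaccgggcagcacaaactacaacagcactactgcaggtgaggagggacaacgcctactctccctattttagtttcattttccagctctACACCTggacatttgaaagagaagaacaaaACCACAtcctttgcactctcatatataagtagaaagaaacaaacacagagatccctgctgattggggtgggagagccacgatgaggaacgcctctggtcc
Nkg7, chr7:43436888-43437187, plus strand: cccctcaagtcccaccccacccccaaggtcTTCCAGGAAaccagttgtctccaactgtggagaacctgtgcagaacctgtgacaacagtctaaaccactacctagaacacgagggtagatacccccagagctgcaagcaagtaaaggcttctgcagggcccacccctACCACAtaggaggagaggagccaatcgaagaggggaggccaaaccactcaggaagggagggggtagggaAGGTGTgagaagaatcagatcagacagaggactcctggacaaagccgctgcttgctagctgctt
Gzmb, chr14:56262285-56262584, minus strand: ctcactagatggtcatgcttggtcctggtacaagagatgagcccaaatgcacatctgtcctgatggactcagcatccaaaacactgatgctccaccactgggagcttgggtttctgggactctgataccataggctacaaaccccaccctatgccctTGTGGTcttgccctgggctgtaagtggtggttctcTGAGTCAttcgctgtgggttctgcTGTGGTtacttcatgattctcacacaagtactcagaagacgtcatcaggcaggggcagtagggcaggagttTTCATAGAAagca

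On the TPM scale, the array genes were the most abundant granzymes in control tumors, and Gzma and Gzmb took a larger share in responders. In control tumors, mean levels were 252 TPM for Gzmf, 231 TPM for Gzmd, 212 TPM for Gzmg, 124 TPM for Gzmc and 85.7 TPM for Gzme. Below them stood Gzmb at 59.5 TPM, Gzma at 48.6 TPM, Prf1 at 30.6 TPM, Nkg7 at 16.6 TPM and Gzmk at 0.564 TPM. Neighbours in this order had ranges that overlapped from Gzmf down to Prf1, and not between Prf1 and Nkg7 or Nkg7 and Gzmk. Responders had Gzmf at 135.5 TPM, Gzma at 135 TPM and Gzmd at 124 TPM as their highest means, with ranges that overlapped for all neighbours down to Prf1. Non-responders kept the control order down to Gzme, and their highest means were 362 TPM for Gzmf, 323 TPM for Gzmd and 292.5 TPM for Gzmg.

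The summed level of the 8 granzymes varied widely within each group, between 606 and 1314 TPM in controls, 376 and 1319 TPM in responders, and 848 and 2255 TPM in non-responders, and the ranges overlapped. The shares of each granzyme except Gzmc and Gzmf did not overlap between responders and the other tumors. In each tumor the shares add up to the whole, so higher ones lower others, and they are not separate observations. On counts scaled to library size, only Gzma and Gzmk of the 8 had no overlap between responders and controls, as in 15.1% of all genes. Against non-responders only Gzmk had none, as in 12.8% of all genes. Gzmc to Gzmg made up 82.5% to 92.5% of the sum in control tumors, 53.9% to 75.5% in responders, and in non-responders it was 84.7% to 91.6%. Gzma made up 3.12% to 7.84% in controls, 12.8% to 28.9% in responders, but 4.15% to 8.67% in non-responders. Gzmb, at 4.36% to 9.55%, 11.5% to 16.9%, and 4.25% to 6.55%, also stood apart in responders. Within the array the genes did not all behave alike, since the share of Gzmc was 9.73% to 15.7%, 11.8% to 14.1%, and 10.5% to 12.35% in the same order of groups. Gzmf overlapped narrowly, at 20.8% in responder 30L and 20.6% in control 14R. The ratio of Gzma to Gzmd was 0.133 to 0.381 in controls, 0.703 to 1.985 in responders, and only 0.168 to 0.426 in non-responders. The ratio of Prf1 to Nkg7 was 1.26 to 2.35, 0.701 to 1.12, and 1.29 to 1.91. These shares and ratios were chosen after the values were seen and were not tested.

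**Figure D1:**
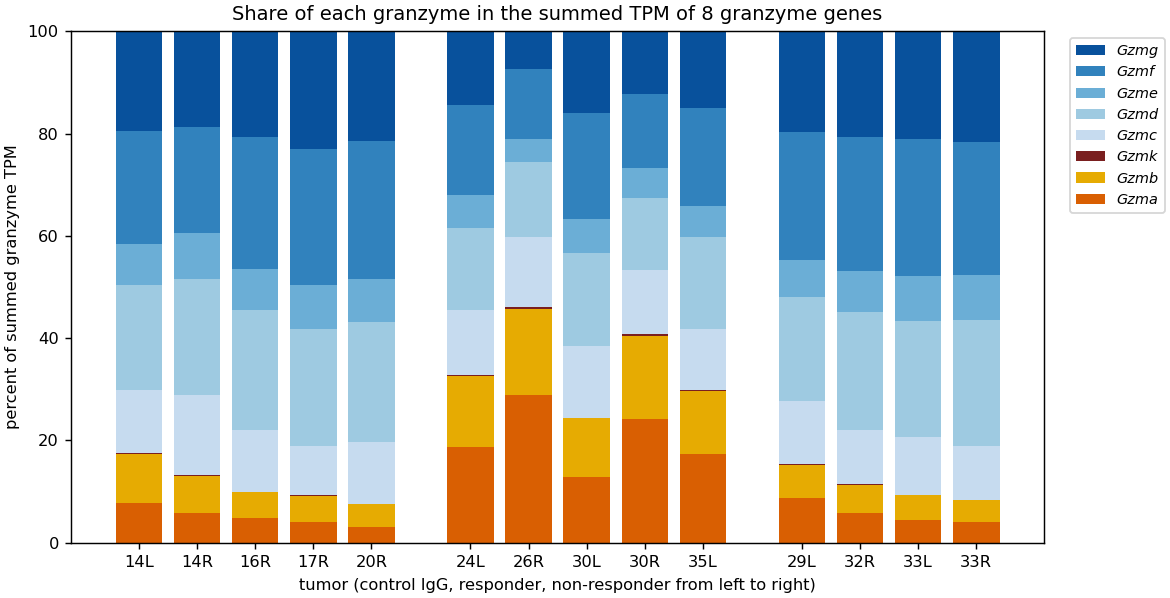
Share of each granzyme in the summed TPM of the 8 granzyme genes (y axis, percent) in each tumor (x axis), with control IgG tumors on the left, responders in the middle and non-responders on the right. The blue segments, Gzmc to Gzmg, made up 53.9% to 75.5% in responders and at least 82.5% in every other tumor.

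Responders against control IgG tumors ask which granule genes differed in treated tumors that the study classed as responding. Gzma, Gzmk and Nkg7 were higher in responders, with no overlap between the groups, and the other 7 genes were not called. Tests used rounded expected counts with TMM scaling in edgeR's quasi-likelihood model of all 14 tumors. Benjamini-Hochberg adjustment ran over all 16287 genes, with an adjusted p under 0.05 as the threshold. Levels are given as CPM (counts scaled to the size of each library). Of the 10 genes, 3 were called higher and 0 lower, where 13.2% of all genes were called, 7.88% higher and 5.3% lower. The same 3 were those whose groups did not overlap, as in 15.1% of all genes.

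Gzma was at 23.4, 32.9, 23.0, 28.4 and 20.6 CPM in control tumors 14L, 14R, 16R, 17R and 20R. In responders 24L, 26R, 30L, 30R and 35L it was at 93.5, 53.1, 83.5, 48.1 and 44.7 CPM. In non-responders 29L, 32R, 33L and 33R it was at 38.5, 41.0, 27.0 and 65.1 CPM. The lowest responder stood above the highest control, and non-responder 33R lay within the responder range. The difference between responders and controls was 1.33 ± 0.25 on the log2 scale (SE, adjusted p = 0.00387, edgeR). Nkg7, the granule membrane protein, had the same order of groups on a lower level. It was at 10.2, 11.0, 5.83, 8.44 and 7.27 CPM in controls, at 28.95, 13.0, 22.2, 16.4 and 14.9 CPM in responders, and at 9.54, 12.0, 8.72 and 14.0 CPM in non-responders, in the same order of tumors. The responders stood above all controls, and 1 of them, 26R, lay below non-responder 33R. Nkg7 differed by 1.16 ± 0.23 between responders and controls (log2, SE, adjusted p = 0.00515, edgeR). Gzmk was the least abundant of the 10 genes, with 7 counts in the tumor with the fewest. It was at 0.483, 0.534, 0.184, 0.338 and 0.297 CPM in controls, at 1.55, 0.787, 1.24, 0.914 and 0.85 CPM in responders, and at 0.598, 0.556, 0.368 and 0.602 CPM in non-responders, in the same order of tumors. Every responder was above every other tumor. The difference from controls was 1.53 ± 0.30 (log2, SE, adjusted p = 0.00504, edgeR). All 3 calls were made under each of the 10 alternative ways of processing and in each of the 10 fits that left out a control or responder tumor. In bulk tumors, more cells that express a gene and more RNA of that gene per cell cannot be told apart.

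**Figure D2:**
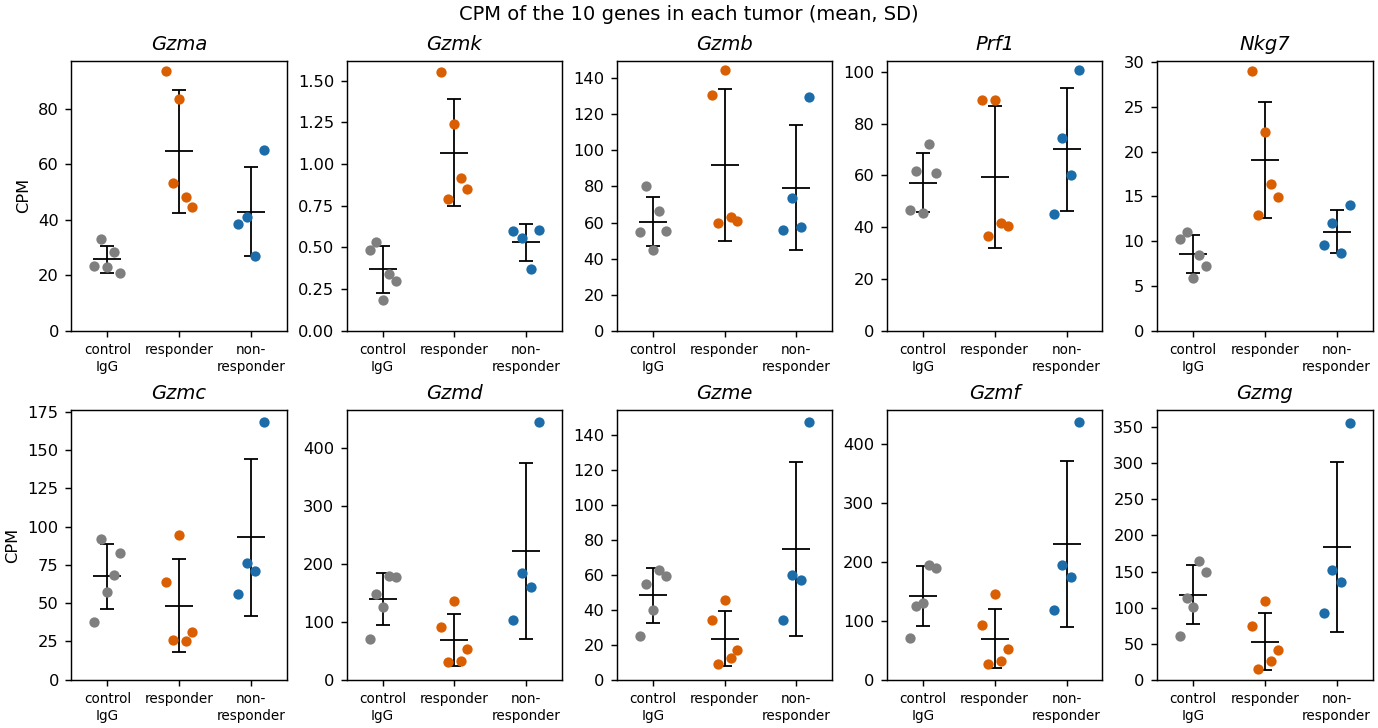
CPM (y axis, linear from 0) of each of the 10 genes in every tumor (points), by group, with the group mean (bar) and SD (whiskers); n is 5, 5 and 4. The responder points lie above all control points for Gzma, Gzmk and Nkg7, and the non-responder point at the top of Gzmc to Gzmg is tumor 33R.

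The array genes had lower means in responders than in controls, and none passed the test. The differences were -0.49 ± 0.40 for Gzmc, -1.03 ± 0.45 for Gzmd, -1.04 ± 0.46 for Gzme, -1.02 ± 0.46 for Gzmf and -1.16 ± 0.49 for Gzmg (log2, SE), with adjusted p between 0.138 and 0.455 (edgeR). Summing the 2 tumors of a mouse into 1 library called Gzmd to Gzmg lower as well, at -1.23 to -1.40 with adjusted p between 0.0282 and 0.0434, so that 7 of the 10 genes were called, and of all genes that setting called 1525 higher and 1331 lower. Without responder 30L, Gzmf at -1.47 and Gzmg at -1.60 were called, with adjusted p = 0.0489 and 0.0496 in edgeR. Tumor 30L held the highest levels of all 5 array genes among responders.

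Responders against non-responders ask what differed between tumors that had the same antibody and a different outcome. Gzmd, Gzme, Gzmf and Gzmg were lower in responders, all in the array on chromosome 14, and 0 of the 10 genes were called higher. The 4 calls are 4 of 10 genes, where 9.9% of all genes were called, 4.82% lower and 5.08% higher, and genes of 1 array with shared sequence and like profiles are not separate cases. Gzmd was at 91.3, 30.6, 135.6, 32.3 and 53.0 CPM in responders 24L, 26R, 30L, 30R and 35L. In non-responders 29L, 32R, 33L and 33R it was at 103, 183, 159 and 444 CPM. Control tumors 14L, 14R, 16R, 17R and 20R had 70.0, 148, 125, 178 and 177 CPM. Responder 30L lay within the range of the non-responders, so that the groups overlapped, and 33R stood above all 13 other tumors. The difference was -1.70 ± 0.48 for Gzmd (log2, SE, adjusted p = 0.0384, edgeR). For Gzmf, the most abundant member of the array, responders had 93.6, 27.0, 145, 31.0 and 52.7 CPM and non-responders 118.5, 194, 174 and 436 CPM, in the same order of tumors, with a difference of -1.72 ± 0.49 (log2, SE, adjusted p = 0.0400, edgeR). Gzme ranged from 8.92 to 45.5 CPM in responders and from 34.1 to 147 CPM in non-responders, a difference of -1.66 ± 0.48 (adjusted p = 0.0424). Gzmg ranged from 14.2 to 109 CPM and from 92.2 to 356.5 CPM, a difference of -1.80 ± 0.52 (adjusted p = 0.0421). Gzmc had the same sign, at -0.95 ± 0.42, and was not called (adjusted p = 0.156). In each of these 5 genes the highest responder was 30L and the highest non-responder was 33R.

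These 4 calls lay close to the threshold and depended on single tumors. Without non-responder 33R the differences were -1.09 to -1.25 with adjusted p between 0.146 and 0.166 in edgeR, and 0 of the 10 genes were called. Leaving out control 17R, responder 24L, 30R or 35L, or non-responder 32R also left 0 called. Of all genes, edgeR called 827 higher and 785 lower with every tumor, and fewer in each of these fits. It called 506 and 287 without 33R, 341 and 228 without 24L, and 349 and 266 without 32R. Without responder 26R, none of the 4 was called and Nkg7 was. Leaving out control 16R left 1 of the 10 genes called and control 20R left 2, whereas 6 were called without control 14R. Of all genes, those fits called 732 higher and 606 lower, 746 and 641, and 900 and 722, in that order. Of the 10 alternative ways of processing, 8 called each of the 4. Fitting only these 2 groups ended all 4 calls at unchanged differences, with adjusted p between 0.0868 and 0.0945, and so did an offset for gene length, at -1.41 to -1.54. Tumor 33R had the longest estimated fragments of all 14, 287.8 bases, and non-responders as a group had 277.5 to 287.8 bases against 269.5 to 277.0 bases in responders; its part in the result was not tested.

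Gzmk and Nkg7 just missed the threshold in this comparison, and Gzma missed it by more. Gzmk was 1.0 ± 0.32 higher in responders (log2, SE, adjusted p = 0.0564, edgeR), with no overlap, as for 12.8% of all genes. Nkg7 differed by 0.79 ± 0.24 (adjusted p = 0.0538) and Gzma by 0.59 ± 0.26 (adjusted p = 0.158), and their groups overlapped through non-responder 33R. On log2(TPM + 1) with limma, Gzma at 0.83, Gzmk at 0.66 and Nkg7 at 0.95 were called as well, which made 7 of the 10 genes, but that scale moved the median of all genes up by 0.17 and called 1969 genes higher and 191 lower, where edgeR on counts called 827 and 785. The length offset, with a median of -0.02 over all genes, called these 3 genes higher too. Of the 10 alternative ways of processing, Gzmk and Nkg7 were each called in 5 and Gzma in 3.

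**Figure D3:**
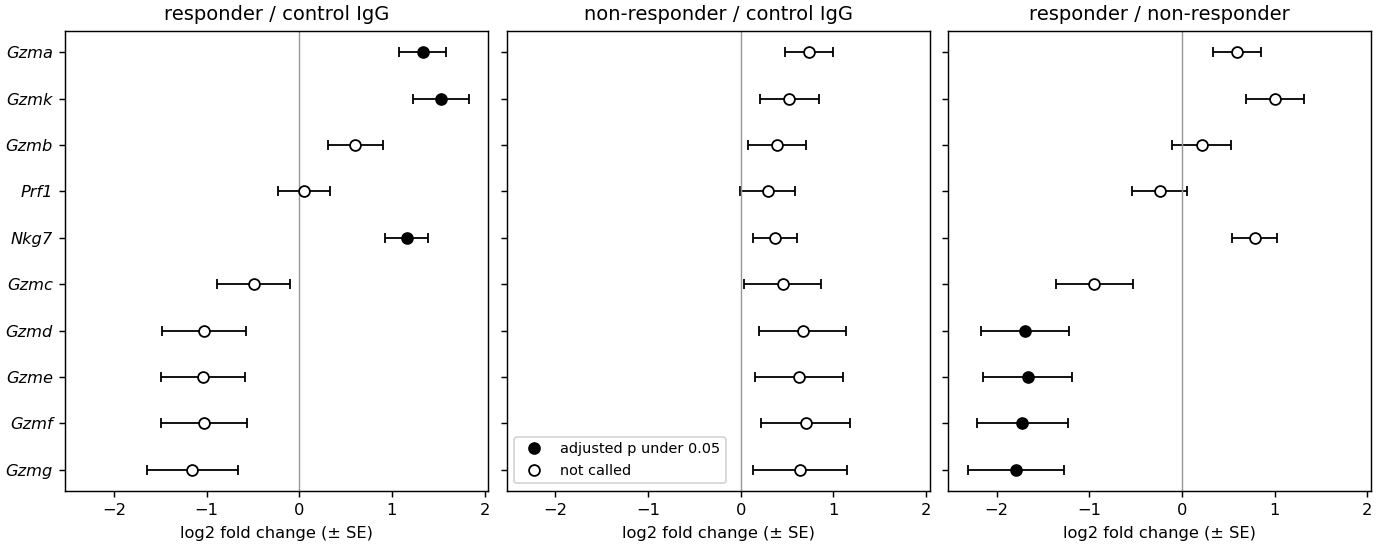
Log2 fold change with its SE (x axis) of the 10 genes (y axis) in the 3 comparisons, with filled points at an adjusted p under 0.05. Gzma, Gzmk and Nkg7 were called in responders against controls, Gzmd to Gzmg in responders against non-responders, and none in non-responders against controls.

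Non-responders against control IgG tumors ask whether the granule genes differed in treated tumors classed as not responding. All 10 differences were above 0, between 0.29 for Prf1 and 0.74 for Gzma on the log2 scale, and 0 were called, where 0% of all genes were called. At an unadjusted p under 0.05, edgeR passed 1 of the 10, Gzma at 0.74 ± 0.26 (adjusted p = 0.932), where 4.65% of all genes passed. None of the 10 was without overlap, where 1.25% of all genes were. DESeq2 called 16 genes, and none of the 10 was among them. Tumor 33R was the highest non-responder for Gzma, Gzmb, Prf1, Nkg7, Gzmk and all of the array, and without it Gzmd differed by 0.07 and Gzmc by -0.01. This comparison and that of responders with controls share the control tumors, so that they are not independent.

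Gzmb and Prf1 were not called in any of the 3 comparisons. Gzmb was at 44.9 to 80.3 CPM in controls, at 131, 59.7, 144.6, 62.8 and 61.1 CPM in responders 24L, 26R, 30L, 30R and 35L, and at 56.0, 73.9, 57.7 and 129.7 CPM in non-responders 29L, 32R, 33L and 33R. Responders fell apart into 24L and 30L above 130 CPM and the other 3 within the control range. It differed by 0.60 ± 0.30 between responders and controls (log2, SE, adjusted p = 0.205, edgeR) and by 0.21 ± 0.32 between responders and non-responders (adjusted p = 0.705). Prf1 had the same tumors on top, with 89.4 CPM in 24L, 89.2 CPM in 30L and 101 CPM in 33R, and between 36.7 and 74.5 CPM in all others. It differed by 0.05 ± 0.28 between responders and controls (adjusted p = 0.929) and by -0.24 ± 0.30 between responders and non-responders (adjusted p = 0.638).

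The left and right tumors of a mouse could differ as much as the groups did. In responder mouse 30, the left tumor had 135.6 CPM of Gzmd and the right one 32.3 CPM, a difference of 2.07 on the log2 scale. The other array genes were 1.88 to 2.23 higher on the left, Gzmb was 1.20 higher and Prf1 1.11 higher. Gzmk and Nkg7 were only 0.44 higher on the left. In non-responder mouse 33, all 10 genes were lower in the left tumor, Gzmd by 1.48 and Nkg7 by 0.69. In control mouse 14, the left tumor again had less of all 10, from 0.11 less for Nkg7 to 1.28 less for Gzmc. There is 1 value per tumor, so no test was made within mice. The array genes differed more between flanks than Nkg7 did in each of the 3 mice.

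Over the 14 tumors, the 10 genes formed a gradient of profiles with Gzma, Gzmk and Nkg7 at one end and Gzmd to Gzmg at the other. Likeness was measured as the root mean square (RMS) difference of log2 CPM after each gene was centred on its own mean. It was 0.10 between Gzmd and Gzme, 0.12 between Gzmd and Gzmf, and 0.17 between Gzmf and Gzmg. Gzmk and Nkg7 were 0.21 apart and Gzma and Nkg7 0.26 apart, whereas Gzmk and Gzmg were 1.58 apart. Gzmc stood 0.36 from Gzmd, 0.43 from Prf1 and 0.63 from Gzmb, between the array and the rest. The spread of each gene over all tumors was 0.46 for Prf1, 0.51 for Gzmb, 0.66 for Gzma, 1.01 for Gzmd and 1.15 for Gzmg (SD of log2 CPM).

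**Figure D4:**
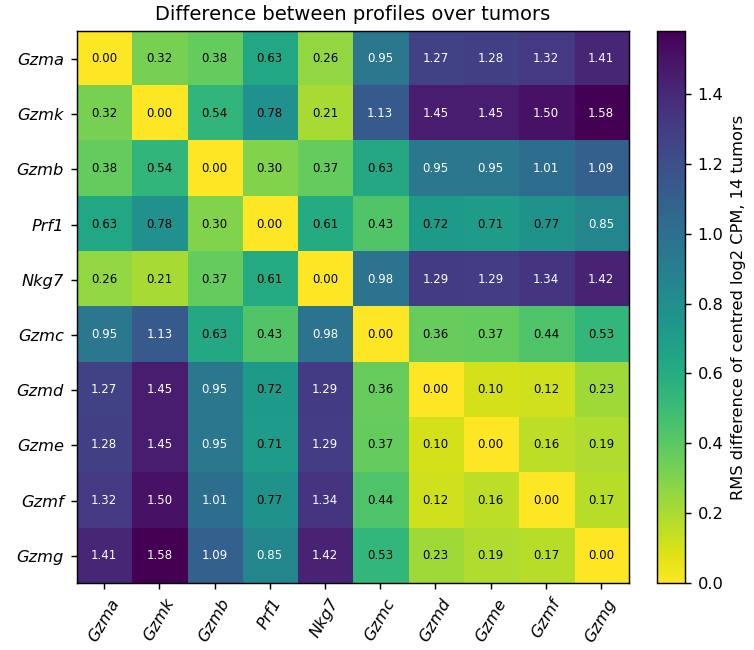
RMS difference of centred log2 CPM over the 14 tumors (colour and printed number, log2 units) between each pair of the 10 genes. The block of Gzmd to Gzmg lies at 0.10 to 0.23, and its distances to Gzma, Gzmk and Nkg7 are between 1.27 and 1.58.

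For each of the 10 genes the 3 nearest genes among all 16287 were named by this measure. Those nearest to the array from outside it were Fcrl6, which encodes an Fc receptor-like protein of cytotoxic lymphocytes, at 0.17 from Gzmg, and Sh2d1b2, which encodes an adaptor of NK cell signaling, at 0.23 from Gzmc. Fcrl6 lies outside the array, and was at 6.56 to 15.1 CPM in controls, at 7.72, 1.60, 9.11, 2.225 and 4.08 CPM in responders, and at 8.0, 12.85, 13.65 and 25.5 CPM in non-responders, with 33R again the highest. Against non-responders, responders differed by -1.60 ± 0.46 on the log2 scale, and since Fcrl6 was named for its likeness to Gzmg in these tumors, this is a description and not a separate result. Gzma was nearest to Gem, a small GTPase gene, at 0.22, then to Bst1, an ectoenzyme gene, and to Ncr1, which encodes the NK cell receptor NKp46. Nkg7 was nearest to Gimap7, a GTPase gene of lymphocytes, at 0.19, and to Lck, the kinase of the T cell receptor, also at 0.19. Gzmb was nearest to Txk, a kinase gene of T and NK cells, at 0.19, and to Srgn, which encodes the proteoglycan that packs granzymes, at 0.24. Gzmk was nearest to Bst1 and Nkg7, and Prf1 to Serpinb9b, a relative of the granzyme B inhibitor, at 0.23.

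T cell genes were higher in responders, so the granule genes were also compared relative to them. Of 10 T cell genes, such as Cd3e, 9 were called higher in responders than in non-responders, where 5.08% of all genes were called higher. The median difference of the 10 was 1.205 on the log2 scale, where the median of all genes was 0.01. Each gene's log2 CPM less the mean of the 10 T cell genes was tested with limma across all genes. Relative to T cells, 7 of the 10 granule genes were called lower and 0 higher, where 83.3% of all genes were called lower and 0.178% higher, with a median of -1.10, so that the number of calls is near that of any gene. Gzmd was at -2.83 ± 0.43, Gzme at -2.82 ± 0.43, Gzmf at -2.95 ± 0.44, Gzmg at -3.06 ± 0.45 and Gzmc at -2.13 ± 0.39, with adjusted p between 0.000132 and 0.000233 in limma for a difference from 0. All 5 values lay below the median of all genes, and the gap from that median was not tested. Prf1 at -1.40 ± 0.30 and Gzmb at -0.92 ± 0.30 lay near that median. Gzma at -0.51 ± 0.28, Nkg7 at -0.36 ± 0.24 and Gzmk at -0.18 ± 0.34 (SE, adjusted p = 0.0906, 0.166 and 0.621 in limma) were not called. The sign of Gzmk was reversed, at 0.07, when NK cell genes were added to the T cell genes. That Gzma, Gzmk and Nkg7 missed the threshold does not show that they moved with T cell genes.

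**Figure D5:**
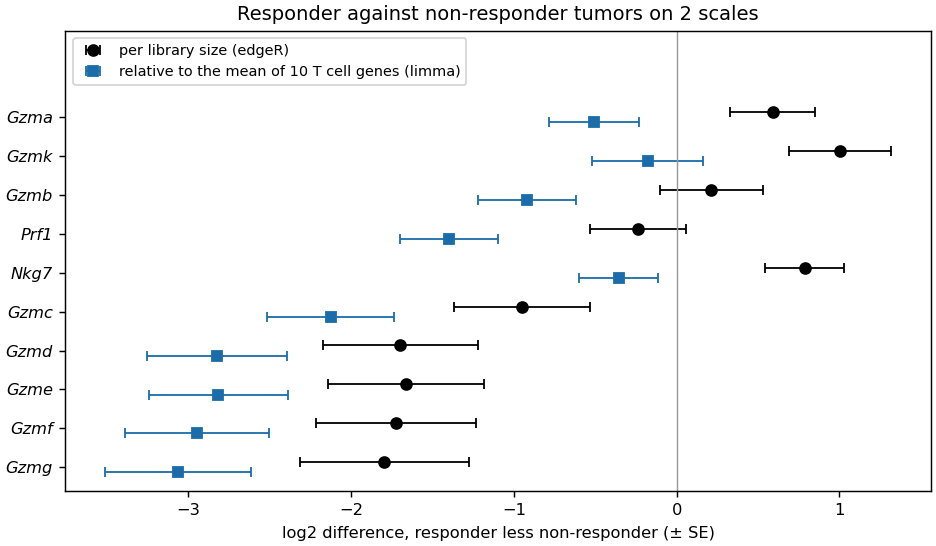
Responder less non-responder difference on the log2 scale (x axis, with SE) of the 10 genes, per library size (circles, edgeR) and relative to the mean of 10 T cell genes (squares, limma). Relative to T cell genes, Gzmd to Gzmg lay at -2.82 to -3.06, and Gzma, Gzmk and Nkg7 between -0.51 and -0.18.

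Markers of T cells, NK cells and other immune cells were examined beside these results. Their levels were summed on TPM, a scale on which the median of all genes was higher in responders. With log2(TPM + 1), that median difference was 0.17 against non-responders and 0.09 against controls. The summed level of 10 T cell genes was 25.0 to 51.6 TPM in controls, 53.8 to 109.9 TPM in responders, but 26.9 to 36.05 TPM in non-responders. That of 10 NK cell genes was 16.1 to 29.0, 38.5 to 65.7 and 21.2 to 28.6 TPM, and of these Klra4 and Klra8 were at 0 in every tumor. Of 8 NK cell genes tested, 1 was called higher in responders against non-responders and 0 lower, with a median of 0.55. Against controls, 5 of them were called higher and 0 lower. Of all genes, 5.08% and 7.88% were called higher, in that order. Klrk1 alone was at 28.0 TPM in responder 24L, which had the highest sum. Tumor 33R, which had the highest array genes, was not the highest in T cell genes among non-responders and was the highest in NK cell genes, at 28.6 TPM. Mast cell proteases lie beside the array on chromosome 14. The sum of 10 mast cell genes was 91.9 to 194 TPM in controls, 72.6 to 188 TPM in the 5 responders, and 85.6 to 175 TPM in the 4 non-responders, with the highest in 14L, 30R and 29L and none of the 10 genes called in any of the 3 comparisons. The basophil list summed to at most 4.92 TPM. Markers of plasmacytoid dendritic cells and of B cells were also higher in part. Of 5 plasmacytoid dendritic cell genes, 2 were called higher in responders against non-responders, Siglech at 1.0 ± 0.25 and Pacsin1 at 1.71 ± 0.37 (log2, SE, adjusted p = 0.0238 and 0.0153 in edgeR), with a median of 0.86 over the list. The list summed to 454 to 958 TPM in controls, 696 to 1336 TPM in responders and 528 to 717 TPM in non-responders. Nearly all of these sums was Bst2, which was not called. In the highest tumor of each group, 14R, 24L and 33R, Bst2 was at 955, 1327 and 709 TPM. Siglech was at 0.63 to 2.43 TPM over all tumors, so the sums say little about the other genes of the list. Of 8 B cell genes, 5 were tested and 2 were called higher, Pax5 at 1.66 ± 0.32 and Fcrla at 0.89 ± 0.26 (adjusted p = 0.0106 and 0.0455), with a median of 0.89 over those tested, and the list summed to 2.67 to 3.77, 4.93 to 6.89 and 2.93 to 4.37 TPM in the same order of groups. Each of these groups of markers was measured beside the granule genes, and its part in the differences was not tested.

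Of 8 other granzymes and neighbours of the array, 6 were tested, and Ctsg was the 1 called in responders against non-responders. Of all genes, 4.82% were called lower and 5.08% higher. Ctsg, which encodes cathepsin G and lies at the end of the array near Gzme, differed by -2.0 ± 0.50 (log2, SE, adjusted p = 0.0260 in edgeR). It was at 0.94 to 4.40 TPM in responders, 3.12 to 18.2 TPM in non-responders and 4.03 to 8.23 TPM in controls, and 33R was again the highest. Cathepsin G is best known from neutrophils and their precursors. A list of 6 neutrophil genes summed to 42.4 to 139 TPM in responders, 85.0 to 236 TPM in non-responders and 81.7 to 284.5 TPM in controls. These ranges overlapped, with medians of 104, 113 and 107 TPM. The highest sums were in non-responder 33L and control 16R. In responders against non-responders, 1 of the 6 genes, Csf3r, was called higher and 0 lower, with a median of -0.66 over the list. The part of these genes in the result was not tested. Cma1 and Mcpt4, mast cell proteases of the same locus, were at 12.8 to 36.1 TPM and 11.7 to 33.3 TPM over all tumors, and were not called. Gzmm was at 0.16 to 1.0 TPM and Gzmn at 0 to 0.58 TPM, both low.

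Partners of the granule were grouped by role, and their counts stand beside the 5.08% of all genes that were called higher in responders against non-responders. Among 8 genes of granule processing and cargo, 2 were called higher in responders against non-responders and 0 lower, with a median of 0.27. Ctsc, the protease that activates granzymes, was 0.56 ± 0.14 higher (log2, SE, adjusted p = 0.0229, edgeR), and Ctsw, a cathepsin of cytotoxic cells, 0.81 ± 0.20 higher (adjusted p = 0.0251). A list of 8 macrophage genes summed to 1478 to 1710 TPM in controls, 1827 to 2457 TPM in responders and 1328 to 1633 TPM in non-responders. On log2(TPM + 1) the median of all genes was itself 0.17 higher in responders than in non-responders. Of these 8 macrophage genes, 1 was called higher in responders against non-responders and 0 lower. The part of macrophages in the difference of Ctsc was not tested. Srgn, at -0.03, was not called. Of the 9 genes of docking and release that were measured, 1 was called, Unc13d, which primes granules for fusion, at 0.64 ± 0.16 (adjusted p = 0.0233).

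Of 6 serpin genes listed beside the granzymes, 2 were called higher in responders against non-responders and 0 lower, where 5.08% of all genes were called higher. The 2 serpin genes were Serpina3g at 1.87 ± 0.32 and Serpina3f at 2.06 ± 0.35 (log2, SE), with adjusted p = 0.00679 and 0.00710 in edgeR. Whether the products of these 2 genes inhibit a granzyme was not examined. Serpinb9, the inhibitor of granzyme B, was at 0.48 ± 0.22 (adjusted p = 0.173), and Serpinb9b at -0.51 ± 0.21 (adjusted p = 0.133), neither called. Against controls, Serpinb6b at 0.82 ± 0.21 was called as well (adjusted p = 0.0187).

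Cytokines, receptors and transcription factors of effector lymphocytes were called higher in part and none lower in responders against non-responders, where 5.08% of all genes were called higher. Ifng, which encodes interferon gamma, was 1.81 ± 0.38 higher than in non-responders and Tnfsf10, the death ligand TRAIL, 0.82 ± 0.24 higher (log2, SE, adjusted p = 0.0139 and 0.0433 in edgeR), which are 2 of the 4 death ligands and effector cytokines tested. Of 8 receptors through which cytokines induce granzymes, 6 were called higher and 0 lower, among them Il18r1 at 1.31 ± 0.22 and Il12rb1 at 1.27 ± 0.25. Among 10 transcription factors, 4 were called higher: Tbx21, Tcf7, Stat4 and Stat5a. Tbx21, which encodes T-bet, was 1.30 ± 0.30 higher (adjusted p = 0.0203), whereas Eomes at 0.42 ± 0.23 (adjusted p = 0.257), Prdm1 at 0.30 ± 0.22 and Runx3 at 0.29 ± 0.18 were not called. Against controls, Eomes was also called, at 0.77 ± 0.22 (adjusted p = 0.0315). In non-responders against controls, 0 genes of these lists were called.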

How the data were processed

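RNA of 14 CT26 tumors was enriched with oligo(dT) and sequenced. According to the submitters' processing notes, reads were aligned with STAR and quantified with RSEM on mm10. The methods of the study state default settings for both tools in their account of cell lines, and say that the tumor RNA was sequenced in the same manner. Expected counts, as deposited by the authors, estimate the fragments of each gene and carry no normalization. Deposited TPM values divide them by effective gene length and share 1 total over tumors. Deposited FPKM values were left aside. The gene lengths and effective lengths deposited served only for the length offset and for the estimate of fragment length. Ensembl identifiers were matched to symbols for 53620 of 53801 genes with GENCODE M21 (GRCm38, the build of mm10).

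Groups and tumor names were taken from the labels. The p-values treat the 14 tumors as separate samples, although 3 mice gave 2 each. No tumors were duplicates by a chi-square of their counts, which was at least 19.8 per gene within groups. Rounded expected counts entered edgeR 4.0.16 under R 4.3.3 (TMM, filterByExpr, quasi-likelihood test, Benjamini-Hochberg adjustment over 16287 genes, threshold 0.05), with all 14 tumors and no covariates. Log2 CPM had a prior count of 2. Values relative to T cell genes used limma 3.58.1 with a trend. The genes, the lists and the rule for named genes (the 10 genes, the pathway lists and the 3 genes nearest to each by profile) were chosen with earlier results of these data known. Scripts were tested on simulated data. Alternatives were DESeq2 1.42.0, limma-voom, the same with a random effect for the mouse, 1 library per mouse, DESeq2's size factors, no filter, the groups compared alone, a length offset, TPM with pseudocounts of 1 and 0.1, and leaving out each tumor. A count of 3 is at most 0.0903 CPM, which is counting error only. Promoters came from RefSeq (GRCm38.p6), and protein sequences were not used here. Vamp7 of the docking list was not matched.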

Additional observations from a re-analysis of the deposited data

How the results depend on the processing

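With 4 or 5 tumors a group, the counts of calls moved widely. Of all genes, responders against non-responders called 1612 in edgeR, 2559 in DESeq2, 2973 with mouse as a random effect, 689 with the 2 groups alone, and 569 to 1978 with a tumor left out, the fewest without 24L, then 615 without 32R, 686 without 30R and 793 without 33R. Of the 10 genes, 4 were called there, 0 with the 2 groups alone, 7 on log2(TPM + 1) and on log2(TPM + 0.1), and 0 to 6 with a tumor left out. Responders against controls called 1190 to 3385 genes with a tumor left out (1190 without 20R, 1192 without 24L, 1387 without 30R, 3385 without 33R) and 2147 with all, and of the 10 genes 3, 7 with 1 library per mouse and 3 to 5 with a tumor left out. Non-responders against controls called 0 genes, 16 in DESeq2, 3 with no filter, and 0 to 5 with a tumor left out, 5 without 35L. The split into higher and lower calls was 1897 and 207 on log2(TPM + 0.1) for responders against non-responders, where that scale moved the median by 0.24. For responders against controls it was 1284 and 863 in edgeR, 1522 and 305 on log2(TPM + 1), 1426 and 299 on log2(TPM + 0.1), and 1345 and 1310 with the length offset. Signs were reversed for differences near 0: with a tumor left out, Gzmb (-0.0109 to 0.5664, below 0 without 30L) and Prf1 (-0.4332 to 5e-04, above 0 without 33R) in responders against non-responders and Gzmc (-0.0132 to 0.6344, below 0 without 33R) in non-responders against controls, then Gzmk relative to T cell genes with NK cell genes added (0.0713), and Prf1 in responders against controls with limma-voom (-0.0459), with mouse as a random effect (-0.0154), with 1 library per mouse (-0.0342), and without 14L, 16R, 24L or 30L (-0.1426 to 0.1833 over the tumors left out). The causes were not tested. For the random effect, limma estimated a consensus correlation of -0.28 over all genes between tumors of 1 mouse, after group means were removed. Only 3 mice with 2 tumors each inform this value. Since it is below 0, the fit with mouse as a random effect was not a stricter test. No paired analysis was possible because the groups compared share no mouse number.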

Other observations

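Bst1, which encodes an ADP-ribosyl cyclase of the cell surface, was among the 3 genes nearest to Gzma and to Gzmk. It was at 19.7 to 34.8 CPM in controls, 46.3 to 95.5 CPM in responders and 30.1 to 42.2 CPM in non-responders, with no overlap between responders and the others. Responders exceeded non-responders by 0.87 ± 0.20 (log2, SE), a description and not a separate result, since these genes were named for their likeness to the granzymes in the same tumors. Rnase6, an antimicrobial ribonuclease gene and also among the nearest to Gzmk, was 1.21 ± 0.27 higher. Gem, the nearest to Gzma, was at 5.28 to 10.85 CPM in responders and 3.64 to 6.53 CPM in non-responders, with a difference of 0.64 ± 0.23.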
